A study of Mus musculus with 2 samples.

Results

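The midbrain-hindbrain boundary is set up in the neural tube by a small group of transcription factors, and 8 of them were followed here: Otx1, Otx2, Gbx2, En1, En2, Pax2, Pax5 and Pax8. They were chosen by gene symbol among the 32285 genes of the count tables, and all 8 had counts in both libraries. Single-cell RNA-seq had been performed on cells of the mouse head at E11.5 (days of embryonic development), sorted for the GFP that the mTmG reporter makes after recombination by Wnt1:CRE. Heads were cut below the second pharyngeal arch and the ear vesicle per the dissection protocol, while the design text places the tissue in front of the ear. The control library pooled 2 embryos of genotype Tfap2a wt/flox; Tfap2b wt/flox, and the mutant library pooled 2 embryos of genotype Tfap2a flox/flox; Tfap2b flox/flox, all of them also r26 mTmG/mTmG, Wnt1CRE+ and on a mixed background. Control cells were thus heterozygous for both TFAP2 genes rather than wild type.

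Otx2, a homeobox factor of the forebrain and midbrain, and Gbx2, a homeobox factor of the anterior hindbrain, repress each other, and the line where they meet becomes the isthmic organizer, a strip of cells that secretes Fgf8 and patterns the midbrain and cerebellum on either side. Otx1 is the paralog of Otx2. The Engrailed factors En1 and En2 and the paired-box factors Pax2, Pax5 and Pax8 are expressed across this strip and keep Fgf8 and Wnt1 on. Wnt1 itself is transcribed in the dorsal midbrain and the dorsal neural tube, so Wnt1:CRE labels brain progenitors and neurons of these regions beside the neural crest for which it is used. En1, Pax2, Pax5 and Pax8 also act later, in neurons that have left the cell cycle.

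The genes are given by their position in GRCm38 (mm10). Otx1 lies at chr11:21994764-22002897 on the minus strand and Otx2 at chr14:48657677-48673819 on the minus strand. Gbx2 lies at chr1:89927956-89931179 on the minus strand, and En1 is on the same chromosome at chr1:120602418-120607992 on the plus strand. En2 lies at chr5:28165694-28172166 on the plus strand, Pax2 at chr19:44756045-44837871 on the plus strand, Pax5 at chr4:44524757-44710487 on the minus strand and Pax8 at chr2:24420560-24475599 on the minus strand. Otx2, Gbx2, Pax2, Pax5 and Pax8 overlap annotated antisense genes that the tables count separately, and as the strand setting of the counting is not given in the sources used here, their counts are uncertain to that extent. Otx1, En1 and En2 overlap no other counted gene.

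After filtering, 5625 control cells and 5587 mutant cells remained, with a median of 13478 and 12234 unique molecular identifiers (UMIs, each 1 captured transcript) per cell. A UMI of Xist was seen in 98.8% of control cells and in 0.107% of mutant cells, and UMIs of Y-linked genes in 0.0356% and 82.0%, so the 2 libraries also differ in the sex of their embryos, and genotype and sex cannot be told apart. There was 1 library per genotype and hence no replicate error. Levels are given as CPM, that is UMIs of a gene per 1000000 UMIs of the same cells, ratios are log2 of mutant over control CPM, and the ranges in parentheses are 95% intervals that cover counting error alone. No p-value could be had. Shares of cells with a UMI were counted after each cell was thinned to 5000 UMIs, unless stated otherwise.

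Clustering without the 8 genes gave brain progenitor-like cells (668 control, 1094 mutant), neuron-like cells (717 and 1166), mesenchyme-like cells (3714 and 2732), glia-like cells (261 and 202), sensory neuron-like cells (26 and 41) and roof plate and choroid plexus-like cells (46 and 83). The names came from marker lists. A list of 12 brain progenitor markers summed to 3242 CPM in control and 3369 CPM in mutant brain progenitor-like cells. In mesenchyme-like cells it summed to 66.7 and 81.2 CPM. Glia-like cells were less clear-cut, with 2242 and 3020 CPM of 10 glia markers beside 3252 and 578 CPM of 12 neuron markers. The share of brain progenitor-like cells was 11.9% in the control and 19.6% in the mutant library, and that of mesenchyme-like cells 66.0% and 48.9%. Neural cells were clustered again, and their clusters are called here by a number and their leading gene.

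The floxed genes were read first. In mesenchyme-like cells Tfap2a had 19.4 CPM in control and 13.7 CPM in mutant cells, with a log2 ratio of -0.50 (-0.65 to -0.36), and Tfap2b had 56.3 and 46.9 CPM, with -0.26 (-0.34 to -0.18). Brain progenitor-like cells held 13 control and 10 mutant UMIs of Tfap2a and 36 and 50 UMIs of Tfap2b. Tfap2a was higher in mutant glia-like cells, at 78.1 and 118 CPM. Reads from the 3′ end of a transcript do not show whether the floxed exon was lost, so these values do not check the genotype.

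Most transcripts of the boundary genes came from the brain. Of the 3535 UMIs of Otx2 in the control library, 51.0% were in brain progenitor-like and 28.6% in neuron-like cells, and of 6501 mutant UMIs 50.9% and 29.9%. En1, En2, Pax5 and Pax8 also had most of their UMIs in these 2 classes, for example 53.4% of the control UMIs of Pax5 in progenitors and 38.8% in neurons. Pax2 lay mainly in neurons, with 63.2% of its control and 79.0% of its mutant UMIs in neuron-like cells. Gbx2 was the exception. In the control library 75.1% of its 453 UMIs were in mesenchyme-like cells, and in the mutant library 41.6% of 262.

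Summed over every kept cell, 7 of the 8 genes were higher in the mutant library, from a log2 ratio of 0.81 (0.44 to 1.19) for Pax8 to 1.02 (0.86 to 1.18) for Pax5, and Gbx2 was lower, at -0.70 (-0.92 to -0.48). Within brain progenitor-like cells, whose share of cells differed as given above, the same 7 genes had ratios between -0.38 for Pax8 and 0.43 for Pax2. Values within a class are therefore used from here on.

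Otx2 was the most abundant of the 8 genes in brain progenitor-like cells by UMIs, with 1803 control and 3312 mutant UMIs. It divided the progenitors into clusters with much and clusters with next to none, as the plot of all 8 genes by cluster shows. The Wfdc1-led cluster 0 had 343 CPM in control and 335 CPM in mutant cells, with a UMI in 75.3% and 77.4% of them. The Nkx2-1-led cluster 12, in which Six3 of the forebrain list was at 181 and 201 CPM, had 114 and 186 CPM of Otx2. The Fgf17-led cluster 1, which also carried Sp8 and the isthmic gene Cnpy1, had 175 and 239 CPM. In the Msx3-led cluster 5, which carried Atoh1 of the rhombic lip and Hoxb2 of the hindbrain, Otx2 was at 4.0 and 15.4 CPM, from 2 control and 9 mutant cells.

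**Figure D1:**
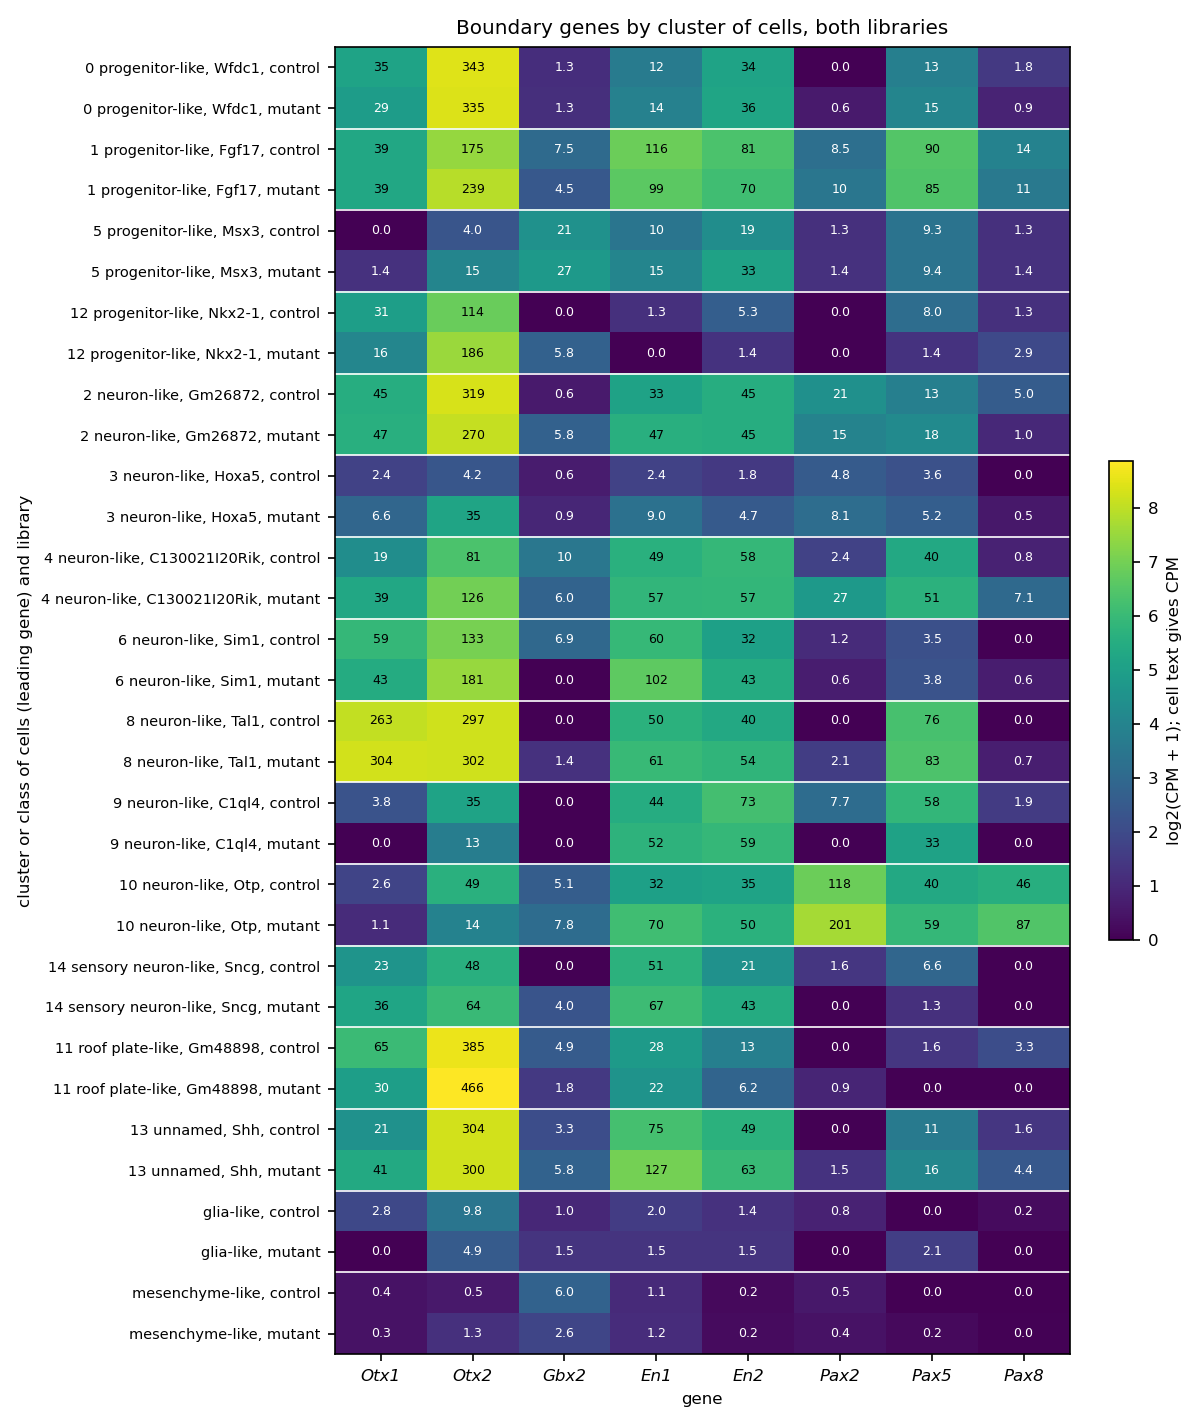
Level of each of the 8 boundary genes (columns, CPM printed in each cell, colour on a log2(CPM + 1) scale) in each neural cluster, in glia-like and in mesenchyme-like cells of the control and the mutant library (rows). Otx2 is high in cluster 0 (343 and 335 CPM) and near 0 in cluster 5, En1, En2 and Pax5 are high in cluster 1, Pax2 and Pax8 in cluster 10 and Otx1 in cluster 8.

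Otx1 had 29.0 and 26.3 CPM in brain progenitor-like cells. It was found mostly where Otx2 was: an Otx1 UMI was seen in 67 of 300 control progenitors with Otx2 (22.3%) and in 110 of 589 in the mutant library (18.7%), against 3.34% and 3.36% of those without Otx2. Cluster 5, low in Otx2, had 0 control and 3 mutant UMIs of Otx1. In roof plate and choroid plexus-like cells, where Otx2 was at 385 and 466 CPM, Otx1 had 40 control and 34 mutant UMIs, which gave 65.3 and 30.3 CPM and a log2 ratio of -1.11 (-1.81 to -0.41). Of these UMIs 82.5% and 64.7% were in 10 cells each. The 6 roof plate and choroid plexus markers of this class summed to 1824 CPM in control and 8342 CPM in mutant cells, and their part in the ratio was not tested.

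Gbx2 was rare in the brain, and also in mesenchyme-like cells as a whole. Brain progenitor-like cells had 52 control and 85 mutant UMIs of it, or 6.32 and 6.44 CPM. Mesenchyme-like cells had 5.95 and 2.61 CPM. Its level among neural clusters was highest in the Msx3-led cluster 5, at 21.4 and 26.7 CPM. There it had 32 control and 57 mutant UMIs in 25 and 41 cells. Clusters 0 and 12, with high Otx2, had 5 and 9 UMIs and 0 and 4 UMIs.

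Otx2 and Gbx2 were seldom found in the same progenitor. Of 659 control cells 299 had Otx2 alone (45.4%, 41.5 to 49.3), 16 had Gbx2 alone (2.43%, 1.39 to 3.91) and 1 had both. Of 1065 mutant cells 586 had Otx2 alone (55.0%, 52.0 to 58.0), 31 had Gbx2 alone (2.91%, 1.99 to 4.11) and 3 had both. The share with neither was 52.0% in control and 41.8% in mutant cells, so at this depth most Otx2-negative cells had no Gbx2 UMI either. The difference between libraries was 9.65 percentage points (4.71 to 14.5) for Otx2 alone and 0.48 (-1.27 to 2.06) for Gbx2 alone. Without thinning the shares with Otx2 alone were 54.9% and 63.2%. The difference came to 4.33 points (-0.32 to 8.91) when 2 UMIs of Otx2 were needed to count a cell.

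A second mark of the hindbrain was taken from 7 Hox genes, which are expressed behind the boundary. Otx2 and Hox transcripts were also seldom found together: 298 control progenitors had Otx2 without Hox, 69 had Hox without Otx2 (10.5%, 8.24 to 13.1) and 2 had both. The mutant counts were 582, 87 (8.17%, 6.59 to 9.98) and 7. Of 71 control and 94 mutant progenitors with a Hox UMI, 0 and 1 had a UMI of En1 and 0 and 2 a UMI of En2, while En1 was found in 12.2% and 12.3% of the cells without Hox. Gbx2 was in 3 of the 71 and 7 of the 94 Hox-positive cells.

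**Figure D2:**
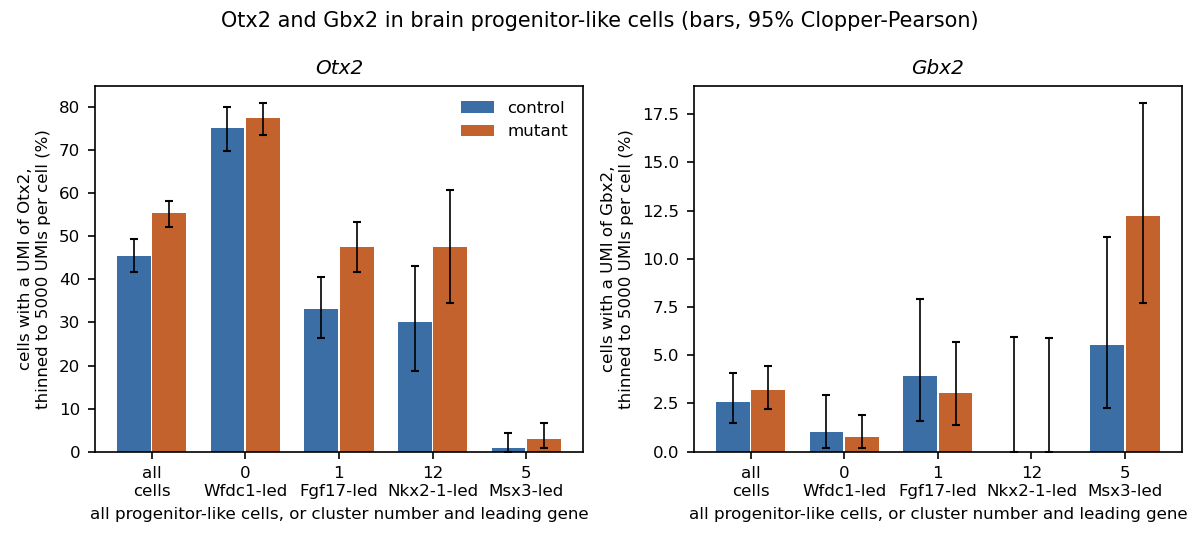
Share of brain progenitor-like cells with a UMI of Otx2 (left) or Gbx2 (right) after thinning to 5000 UMIs, in all cells and by cluster, for the control and the mutant library, with 95% Clopper-Pearson intervals. Otx2 is near 75% in cluster 0 of both libraries, is 33.1% in control and 47.5% in mutant cells of cluster 1, and Gbx2 is highest in cluster 5.

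The higher share of Otx2-positive cells in the mutant library was not even across clusters. In cluster 0 the shares with Otx2 alone were 74.9% and 77.0%, which differ by 2.09 points (-4.06 to 8.49). In cluster 1 they were 33.1% and 47.5%, which differ by 14.3 points (4.90 to 23.3). The log2 ratio of Otx2 was likewise -0.03 (-0.13 to 0.06) in cluster 0 and 0.45 (0.27 to 0.63) in cluster 1. Finer clustering gave a Fgf17-led and a Wnt7b-led group of progenitors. In the Wnt7b-led group, of 128 control and 209 mutant cells, Otx2 had 177 and 282 CPM and a ratio of 0.67 (0.45 to 0.90), and in the Fgf17-led group 204 and 188 CPM and a ratio of -0.12 (-0.40 to 0.18).

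En1 and En2 had their highest progenitor levels in the Fgf17-led cluster 1, with 116 and 98.8 CPM of En1 and 80.6 and 70.2 CPM of En2. Pax5 was high in the same cluster, with 90.05 and 84.5 CPM. Pax8 followed at 14.4 and 11.01 CPM and Pax2 at 8.46 and 10.1 CPM. All 5 were thus in the cluster that carries the isthmic signal genes Fgf17 and Fgf8. Outside it En2 reached further than En1: cluster 0 had 34.3 and 36.4 CPM of En2 against 11.8 and 13.99 CPM of En1, in terms of CPM that are not adjusted for the efficiency with which each transcript is captured. In the Nkx2-1-led cluster 12, En1 had 1 control and 0 mutant UMIs.

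The finer clusters placed these genes more narrowly. A group of 62 control and 113 mutant cells led by Fgf17, Fgf8, Trh and Hes3 had 254 and 212 CPM of En1, 165 and 127 CPM of En2 and 194 and 188 CPM of Pax5. En1 was detected in 67.8% and 56.9% of these cells. Pax8 had 39.0 and 24.2 CPM there and Pax2 20.1 and 23.5 CPM. Otx2 was still at 204 and 188 CPM, and Gbx2 had 7 and 8 UMIs. Of the 5 En and Pax genes, En2 had a ratio whose counting interval left out 0 in this group, at -0.37 (-0.71 to -0.04).

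Cells with a UMI of Fgf8, 22 in the control and 38 in the mutant library, allowed the same question to be put without clusters. En1 was found in 15 of the 22 control cells (68.2%) and 23 of the 38 mutant cells (60.5%), against 8.95% and 9.44% of the progenitors without Fgf8. En2 was in 63.6% and 63.2% of them, and Pax5 in 54.5% and 63.2%. Pax2 was in 18.2% and 34.2% of the Fgf8-positive cells, against 0.628% and 0.292% of the others, and Pax8 in 22.7% and 18.4%, against 1.41% and 0.974%. Otx2 was in 45.5% of both kinds of cell in the control library, and in 34.2% of Fgf8-positive and 56.1% of the other cells in the mutant library. Gbx2 was seen in 2 control and 1 mutant Fgf8-positive cells and Hox genes in 0 and 0.

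**Figure D3:**
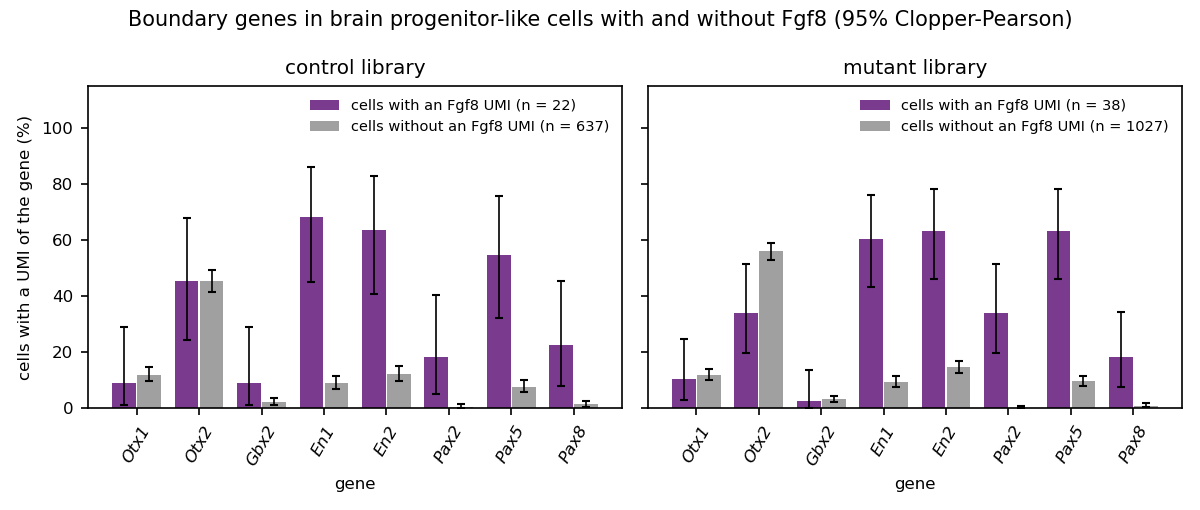
Share of brain progenitor-like cells with a UMI of each boundary gene among cells with and without a UMI of Fgf8, by library, after thinning to 5000 UMIs, with 95% Clopper-Pearson intervals. En1, En2, Pax2, Pax5 and Pax8 are more often found in Fgf8-positive cells in both libraries, as for En1 at 68.2% against 8.95% in the control, and Otx2 is not.

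Between the libraries, brain progenitor-like cells showed no boundary gene past 1.5-fold. A minimum of 100 UMIs in either library was met by 5 of the 8 (Otx1, Otx2, En1, En2 and Pax5). Of these 0 were past 1.5-fold, where 0.941% of all 9144 genes with that minimum were. Of the members with that minimum in cluster 0 (4) and cluster 1 (5), 0 and 0 were past 1.5-fold, against 1.13% and 1.31% of all genes. Otx2 had a log2 ratio of 0.20 (0.11 to 0.28), from 219 and 251 CPM. En1 had 36.0 and 35.1 CPM with a ratio of -0.04 (-0.25 to 0.18), En2 40.2 and 42.7 CPM with 0.08 (-0.11 to 0.29), and Pax5 30.8 and 31.3 CPM with 0.03 (-0.20 to 0.26). Otx1 had -0.14 (-0.39 to 0.10). The counts of Gbx2, Pax2 and Pax8 were low, and their intervals are wide, as in 0.43 (-0.39 to 1.30) for Pax2 and -0.38 (-1.02 to 0.27) for Pax8. Gbx2 had 0.03 (-0.49 to 0.55).

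Other genes of the isthmus were read in the same cells. Of a list of 23 such genes (ligands, receptors, feedback inhibitors and other factors of the strip), 20 had the minimum count in brain progenitor-like cells, 0 were past 1.5-fold higher and 1 was past 1.5-fold lower, against 0.569% and 0.372% of all genes. The median log2 ratio of the 20 was 0.00, and that of all genes was -0.01. The gene that was lower was Sp5, a target of Wnt signalling, with 132 control and 113 mutant UMIs, 16.0 and 8.56 CPM and a ratio of -0.91 (-1.28 to -0.53). The ligands Fgf8 and Wnt1 had -0.09 (-0.34 to 0.17) and -0.30 (-0.51 to -0.08), and Fgf17 had 0.33 (0.10 to 0.57). Within the Fgf17-led and Fgf8-led fine group Wnt1 was lower in the mutant library, with 99 control and 81 mutant UMIs, 124 and 59.5 CPM, and a ratio of -1.07 (-1.51 to -0.63), while Fgf8 had -0.18 (-0.45 to 0.08). In neuron-like cells 11 of the 23 had the minimum count, and 1 of them, Il17rd, was past 1.5-fold higher, against 1.17% of all genes. It had 49 UMIs in control and 133 in mutant cells, and so met the minimum through the mutant library alone.

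Neurons showed a different pattern for each gene. Otx1 and Otx2 were both high in the Tal1-led cluster 8, with 263 and 304 CPM of Otx1 and 297 and 302 CPM of Otx2. This was the highest level of Otx1 in any neural cluster, detected in 62.5% of control cells and 63.9% of mutant cells. Cluster 8 carried Gad2 of inhibitory neurons and Sox14 of the midbrain list, and also Six3 of the forebrain list at 579 and 528 CPM. The midbrain list summed to 1675 and 1640 CPM there and the forebrain list to 881 and 744 CPM. Otx2 was as high in the Tfap2d-carrying cluster 2, with 319 and 270 CPM, where Otx1 was at 45.5 and 47.5 CPM. Both were scarce in the Hoxa5-led cluster 3, which expresses Evx1 and Hox genes of the hindbrain. Otx2 had 7 control and 74 mutant UMIs there, and 93.2% of the mutant UMIs were in 10 cells.

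Pax2 and Pax8 were highest in 1 neuronal cluster. The Otp-led cluster 10 carries Lhx1 and, at 247 and 169 CPM, Hoxb4, a gene of the posterior hindbrain. It had 92 control and 181 mutant UMIs of Pax2, or 118 and 201 CPM, and 36 and 78 UMIs of Pax8, or 46.1 and 86.5 CPM. Pax2 was detected in 27.1% of control and 43.0% of mutant cells of this cluster. Of 35 control and 79 mutant neuron-like cells with a Pax2 UMI, 13 and 23 also had Pax8, against 1 of 660 and 9 of 1048 cells without Pax2. A Hox UMI was in 25.7% and 35.4% of the Pax2-positive cells, against 34.7% and 23.3% of those without Pax2. The Hoxb4 level is thus a value of cluster 10 and does not by itself place the Pax2-positive cells. The enzymes of GABA synthesis, Gad1 or Gad2, were in 51.4% of control and 43.0% of mutant Pax2-positive neurons, against 8.18% and 15.3% of the others, and the glutamate transporter Slc17a6 was in 5.71% and 7.59%, against 23.2% and 24.1%.

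Finer clustering gave an Otp-led and a Hoxc4-led group of neurons with Pax2. The Otp-led group, with Slc32a1 and Gad2 among its leading genes, of 24 control and 35 mutant cells, had 258 and 306 CPM of Pax2, 121 and 164 CPM of Pax8, 114 and 151 CPM of Pax5, 110 and 120 CPM of En2 and 87.2 and 195 CPM of En1. It held 0 and 0 UMIs of Otx1 and Gbx2, and 5 and 0 of Otx2. The Hoxc4-led group, of 51 control and 60 mutant cells, had 43.7 and 136 CPM of Pax2, and 4 and 0 UMIs of En1. Both groups are small, and most of the Pax2 UMIs of cluster 10 were in few cells, with 68.5% of the control and 49.7% of the mutant UMIs in 10 cells each.

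En1, En2 and Pax5 were spread over several kinds of neuron. The highest levels given here are among the numbered neuron-like clusters, and the finer Otp-led group above had more of each gene. En1 was highest in the Sim1-led cluster 6, with 59.99 and 102 CPM, where Pax5 was at 3.46 and 3.83 CPM. The leading genes of this cluster included both Foxa2 of the ventral midbrain and Sim1 of the forebrain list. Foxa2 was at 223 and 238 CPM there and Sim1 at 241 and 234 CPM. Pax5 was highest in the Tal1-led cluster 8, at 76.2 and 83.4 CPM. En2 was highest in the Atoh1-carrying cluster 9, at 73.1 and 59.4 CPM, which is led by C1ql4 and carries the excitatory markers Lhx9 and Barhl1 and which had 0 and 0 UMIs of Gbx2. In the Shh-led cluster 13, which was left unnamed, En1 was at 75.3 and 127 CPM and Otx2 at 304 and 300 CPM. Sensory neuron-like cells, of which there were 26 and 41, held 31 and 50 UMIs of En1, or 51.1 and 66.6 CPM.

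In neuron-like cells as a whole 7 of the 8 genes had a log2 ratio of 0.18 or more, and Gbx2, with 25 control and 44 mutant UMIs, had 0.05, which became -1.02 when cells were thinned to 5000 UMIs. Of the 8, 7 had the minimum count, and 1 of them, En1, was past 1.5-fold higher in the mutant library, where 1.17% of 9246 genes were. En1 had 251 control and 669 mutant UMIs, 33.8 and 53.2 CPM, and a ratio of 0.65 (0.44 to 0.87). Otx1 was just short of 1.5-fold, at 40.9 and 60.9 CPM and 0.58 (0.38 to 0.77). Pax5 had 0.40 (0.15 to 0.66), Pax8 0.37 (-0.14 to 0.90), Pax2 0.35 (0.06 to 0.64), En2 0.24 (0.02 to 0.45) and Otx2 0.18 (0.07 to 0.29). The interval of Gbx2 was -0.69 to 0.82. The median over all genes was 0.02.

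The make-up of the neuron-like cells also differed between the libraries, and its part in these ratios was not tested. The Tal1-led cluster 8, the one with the most Otx1, held 49 control and 149 mutant cells, and the share of neurons with Hox but without Otx2 was 32.7% in the control and 22.9% in the mutant library, which differ by -9.77 points (-14.1 to -5.45). The mutant clusters were also weighted by the control library's cluster shares, a calculation added after the values had been seen. The ratio of En1 was then 0.57, short of 1.5-fold, that of Otx1 0.18, that of Otx2 0.04 and that of Pax2 0.67. En1 was higher in mutant cells within cluster 6, with 0.76 (0.30 to 1.24), and within cluster 10, with 1.13 (0.44 to 1.86). Pax2 had 0.77 (0.40 to 1.15) in cluster 10, and in the Bhlhe22-carrying cluster 4 it had 3 control UMIs and 71 mutant UMIs in 26 cells, a ratio of 3.47 (1.86 to 5.78).

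**Figure D4:**
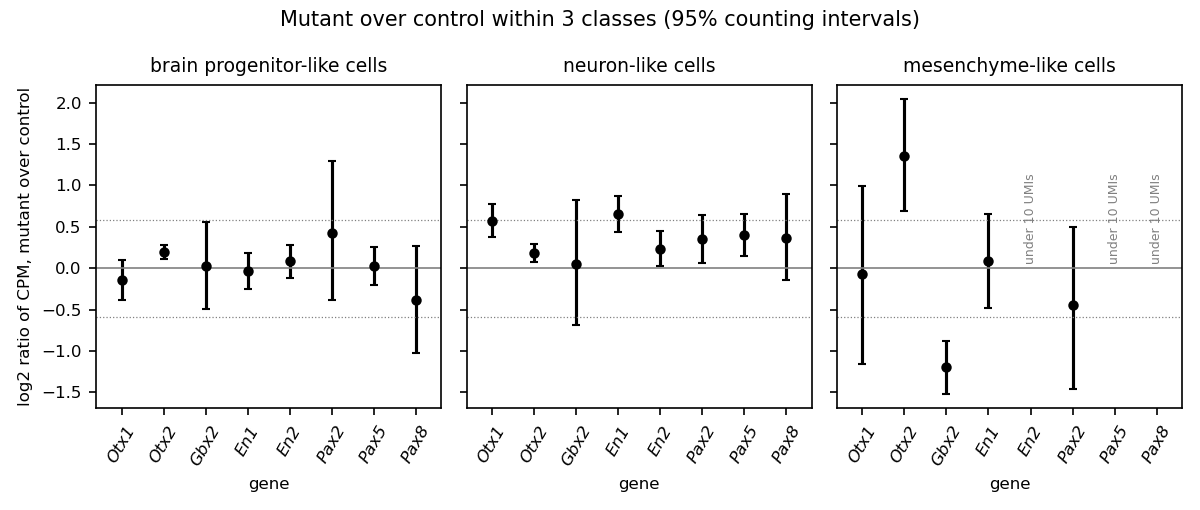
Log2 ratio of mutant over control CPM of each boundary gene in brain progenitor-like, neuron-like and mesenchyme-like cells, with 95% counting intervals and dotted lines at 1.5-fold. In progenitors Otx2 stands at 0.20 and En1 at -0.04, in neurons En1 is highest at 0.65, and in mesenchyme Gbx2 is at -1.19 and Otx2 at 1.35 from 30 and 56 UMIs.

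Mesenchyme-like cells, which form the skeleton and connective tissue of the face, expressed Gbx2 and next to nothing of the other 7 genes. Gbx2 had 340 control UMIs in 186 cells and 109 mutant UMIs in 82 cells, or 5.95 and 2.61 CPM, with a log2 ratio of -1.19 (-1.52 to -0.88). Of the 8 genes it alone had the minimum count in this class, and it was past 1.5-fold lower, where 0.863% of 11588 genes were. Of the UMIs of the 8 genes in mesenchyme-like cells, Gbx2 made up 69.1% (control) and 41.9% (mutant). In brain progenitor-like cells it made up 1.72% and 1.61%. How much RNA from other cells added to the mesenchyme counts was not tested. Of 78 control and 33 mutant mesenchyme-like cells with a Gbx2 UMI after thinning, 0 and 0 had a UMI of Otx2, En1, Pax2 or Sox2. The upper 95% bounds were 4.62% and 10.6%. Among cells without Gbx2 each of these genes was in at most 0.558% of control and 0.681% of mutant cells. The Gbx2-positive cells were thus too few to show whether the genes occur together.

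Gbx2 was concentrated in 1 of 4 mesenchyme clusters. In cluster 2, led by Cyp26a1, Dlx3, Emx2 and Hoxa2 and holding 673 control and 699 mutant cells, it had 243 control UMIs in 117 cells and 61 mutant UMIs in 46 cells. This was 25.7 and 6.37 CPM, a log2 ratio of -2.01 (-2.44 to -1.60), and 0.757% of 8458 genes were past 1.5-fold lower in that cluster. Among 8456 genes, with Xist and Tsix left out, Gbx2 had rank 3 from the lowest ratio. With 243 control and 61 mutant UMIs, Gbx2 met the minimum count through the control library alone. Cluster 2 was also read because Gbx2 was highest there. The rank and the 0.757% thus describe the size of the ratio and do not test it. After thinning, 2.13% of control and 1.23% of mutant mesenchyme-like cells had a Gbx2 UMI. The shares were 0.772% and 0.498% in glia-like cells and 2.58% and 3.19% in brain progenitor-like cells. Mesenchyme as a whole was thus not above the progenitors. The UMIs in cluster 2 were spread over cells, with 23.9% of the control UMIs in the 10 cells with most. Cluster 1, led by Lhx6 and Osr2 of the oral mesenchyme, had 76 and 39 UMIs and a ratio of -0.67 (-1.26 to -0.09). The Alx1-carrying cluster 0 had 9 and 4 UMIs, and the Hand2-carrying cluster 3 had 12 and 5.

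Cluster 2 holds cells with a UMI of Hoxa2, a gene of the second arch, and cells without one. The split that follows was made after these values had been seen, on cells that were not thinned. A cell without a Hoxa2 UMI may still express Hoxa2. Whether the make-up of cluster 2 differed between the libraries, and its part in these ratios, was not tested. In cells of cluster 2 without a Hoxa2 UMI, Gbx2 had 208 control UMIs in 399 cells and 16 mutant UMIs in 393 cells, 39.0 and 3.34 CPM, and a ratio of -3.54 (-4.38 to -2.81). In cells with a Hoxa2 UMI it had 35 and 45 UMIs in 274 and 306 cells, 8.51 and 9.37 CPM, and a ratio of 0.14 (-0.53 to 0.82). A Hoxa2 UMI was found in 4 of the 78 Gbx2-positive mesenchyme-like cells of the control library (5.13%) and in 12 of the 33 of the mutant library (36.4%). Pitx1, a homeobox factor of the first arch, was in 28.2% and 12.1% of them, and in cluster 2 it had 164 control and 16 mutant UMIs, a ratio of -3.38 (-4.22 to -2.64).

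**Figure D5:**
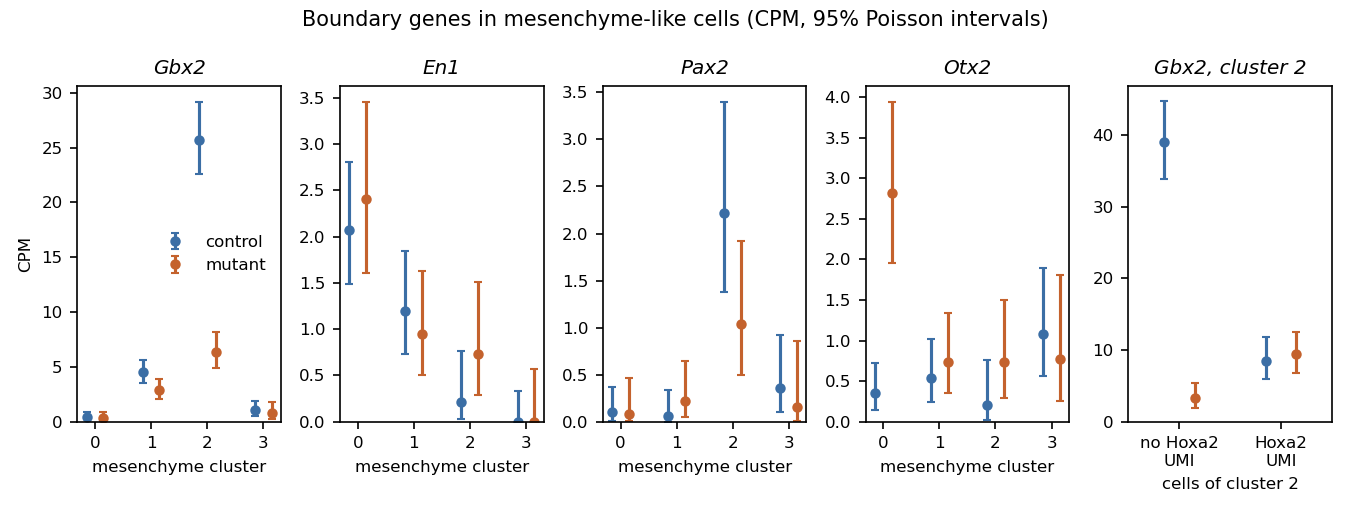
Levels (CPM, 95% Poisson intervals) of Gbx2, En1, Pax2 and Otx2 in the 4 mesenchyme clusters of both libraries, each on its own axis, and of Gbx2 in cells of cluster 2 with and without a Hoxa2 UMI. Gbx2 in cluster 2 is at 25.7 CPM in control and 6.37 CPM in mutant cells. The gap lies in cells without a Hoxa2 UMI (39.0 and 3.34 CPM), in a split made without thinning. The other 3 genes stay below 5 CPM.

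The other genes were at trace levels in mesenchyme. En1 had 63 control and 49 mutant UMIs, 1.10 and 1.17 CPM, and 41 and 29 of them were in cluster 0, from 24 and 9 cells, where En2 had 2 and 3 UMIs. Cluster 3 had 0 and 0 UMIs of En1. Pax2 had 28 and 15 UMIs, of which 21 and 10 were in cluster 2. Otx1 had 20 and 14 UMIs, En2 9 and 8, Pax5 1 and 7, and Pax8 1 and 2.

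Otx2 had 30 control UMIs in 29 cells and 56 mutant UMIs in 41 cells of the mesenchyme-like class, 0.525 and 1.34 CPM, and a ratio of 1.35 (0.69 to 2.04). In mutant cells 34 of the 56 UMIs were in cluster 0, in 19 cells. After thinning, 0.164% of control and 0.486% of mutant mesenchyme-like cells had an Otx2 UMI, against 45.5% and 55.3% of brain progenitor-like cells. The summed level of 12 brain progenitor markers in mesenchyme-like cells was 66.7 CPM in control and 81.2 CPM in mutant cells, and its part in the Otx2 result was not tested. Another mesenchyme cluster, of 45 control and 85 mutant cells, in which 73.3% and 72.9% were called doublets, was left unnamed and held 85 and 254 UMIs of Otx2.

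Glia-like cells had 50 control and 16 mutant UMIs of Otx2, in 8 cells of each library, and 14 and 0 UMIs of Otx1. The list of 12 neuron markers, summed, was at 3252 CPM in control and 578 CPM in mutant glia-like cells, and its part in these counts was not tested.

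The genes whose levels went most closely with each of the 8 were sought among 11975 genes over 28 profiles, 14 neural clusters in 2 libraries, by Pearson's r of log2(CPM + 1). Profiles of 1 cluster share its cell type and profiles of 1 library share its depth, so r is a description. En1 and En2 were close to each other (0.86), and nearest to En2 was Cnpy1 (0.95), whose gene lies 28.7 kb away on the other strand. Otx1 and Otx2 had r = 0.86, and Otx1 was closest to Ehbp1 (0.88), 2931 bases away on the same strand, where transcripts that run past a gene's end would be counted for either. Otx2 and Gbx2 were closest to the antisense genes that overlap them, Otx2os1 (0.89) and D130058E05Rik (0.72). Pax2 and Pax8 went together (0.76), and Pax2 was closest to Otp (0.81), a homeobox gene of the cluster described above. Pax5 was closest to the Notch ligand Jag1 (0.84) and was nearer to En2 (0.68) than to En1 (0.46). Otx2 and Gbx2 had r = -0.15 over the clusters, and Otx2 and Pax5 -0.03.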

How the data were processed

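The deposited files hold raw UMI counts per gene and cell, 1 matrix per library. Per the file headers and the submitters' processing notes, the authors aligned reads to mm10 with Cell Ranger (6.0.0), and the tables are not normalised. Depth was 83542433 (control) and 79206144 (mutant) UMIs in 6148 and 6063 barcodes, of which 6 barcodes occurred in both libraries. Cells with over 10% mitochondrial counts, under 200 or over 7500 genes were removed, as in the study. Libraries were integrated on anchors and clustered in Seurat (5.3.0) with 2000 variable genes, without the 8 genes, Tfap2a, Tfap2b, Xist, Tsix and Y-linked genes. Resolutions were 0.05 (classes), 0.40 (neural) and 0.20 (mesenchyme). Clusters were called X-like from marker lists. Those with over 20% doublets by Scrublet (scanpy 1.11.5) in either library, and a Shh-led cluster, were left unnamed, rules set after the clusters had been seen. Doublets elsewhere were kept (93 control and 171 mutant cells in all). Ratios carry exact conditional binomial intervals, levels Poisson and shares Clopper-Pearson intervals, computed in scipy (1.17.1) and checked on simulated data. Thinning to 5000 UMIs left out 121 control and 173 mutant cells. Genes past 1.5-fold were counted among those with 100 UMIs in 1 or both libraries. Named genes were the 8, the 3 most correlated with each, isthmic genes past 1.5-fold, genes of the regional lists that led a cluster or were highest in it, Tfap2a and Tfap2b. Outside this rule Helt, Rax, Pitx1, Hoxa2, Il17rd, Fgf8, Fgf17 and Wnt1 are given with values and were chosen after their values were seen. The 8 genes and the lists were chosen with earlier results of these data known. Imputed values were not used. One other gene is not reported here.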

Additional observations from a re-analysis of the deposited data

Results flagged for a closer look

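Otx1 and Otx2 had log2 ratios of opposite sign, or of different size, in different classes of cells, with counting intervals that left out 0. The differences between classes were not tested, as there was 1 library per genotype. Otx1 had 0.58 in neuron-like cells and -1.11 in roof plate and choroid plexus-like cells. The second value rests on 40 UMIs in control and 34 in mutant cells. Otx2 had 0.20 in brain progenitor-like, 0.18 in neuron-like and 0.27 in roof plate and choroid plexus-like cells, 1.35 in mesenchyme-like cells and -1.02 in glia-like cells, the last from 8 cells of each library.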

How the results depend on the processing

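No paired analysis was possible because there was 1 library per genotype. The log2 ratio of Otx2 in brain progenitor-like cells lay between 0.13 and 0.23, that of En1 in neuron-like cells between 0.57 and 0.84 and that of Gbx2 in mesenchyme-like cells between -1.50 and -1.16, each over 9 values. These covered removal of doublets, other scaling, equal weight per cell, thinning, other clusterings and, added later, the unnamed doublet-rich mesenchyme or the control cluster shares. The share difference of Otx2 without Gbx2 in progenitors was 4.33 points with 2 UMIs needed, against 9.65. With a minimum of 30 UMIs, 409, 527 and 794 genes were past 1.5-fold in progenitor-like, neuron-like and mesenchyme-like cells, against 86, 156 and 337. The log2 ratios of Otx2, En1 and Gbx2 named at the start of this paragraph kept their sign, as did the share difference. With the 8 genes allowed into the clustering, named neural clusters were ranked by the mean CPM of both libraries. An Otp-led cluster of 20 control and 35 mutant cells came first for En1, En2, Pax2, Pax5 and Pax8. Its control levels of these were 98.6, 117, 319, 131 and 150 CPM. Thinning moved Gbx2 in neuron-like cells from 0.05 to -1.02, where 8 cells of each library had a UMI, and Pax5 in progenitors from 0.03 to 0.41. In progenitors the counts of Gbx2, Pax2 and Pax8 left intervals of the log2 ratio wider than 1 unit.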

Other observations

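Among genes of the midbrain list that were read beside the boundary genes, Helt, a factor of inhibitory midbrain neurons, stood apart and is named after its value was seen. It had 95 control and 412 mutant UMIs in brain progenitor-like cells, 11.55 and 31.2 CPM, a log2 ratio of 1.43 (1.11 to 1.77), and 168 and 175 UMIs in neuron-like cells, a ratio of -0.70 (-1.02 to -0.39). In cluster 1, where the Otx2 share differed, Helt had 41.8 and 104 CPM. Of the forebrain genes, Rax had a ratio of -1.77 (-2.44 to -1.14) in brain progenitor-like cells, from 66 and 31 UMIs, and Lhx2 had -0.72 (-1.04 to -0.40).

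In the Msx3-led progenitors of the finer clustering Wnt1 had 121 and 128 CPM, a ratio of 0.08 (-0.19 to 0.36), beside the -1.07 of the Fgf17-led and Fgf8-led group. The difference between the groups was not tested.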
